A study of Homo sapiens with 2 samples.

Results

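TP53INP1, RNF144B, RRM2B, TIGAR, SESN2 and AEN are stress-response genes known as targets of the p53 family, and here they were measured in PC3, an established prostate carcinoma line of human origin in which p53 is not functional. The probe sets used here named 13864 genes. These 6 were chosen by name, as the probe sets whose platform annotation carries 1 of the 6 symbols. Each was read by 1 probe set. The choice was made with their values on these same arrays in view, so every value below is a description and none is a test. Total RNA came from 2 PC3 derivatives, the control stably overexpressing a control microRNA and the other stably overexpressing miR-95. Both were grown in the same serum-containing medium and each was hybridised to 1 Affymetrix gene array. The labels do not say how the overexpression was achieved or whether each derivative is a clone or a pool.

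The transcription factor p53 is held low by MDM2 in unstressed cells and is stabilised when kinases of the DNA damage response are active. It then switches on genes that stop the cell cycle, repair DNA, adjust metabolism or start cell death. Its relatives p63 and p73 bind similar DNA elements, and several of these genes also answer to factors outside the family. SESN2, for example, is induced by ATF4 under amino acid shortage and by NRF2 under oxidative stress. The level of miR-95 itself could not be read, as none of the probe sets used carries its name. TP73, which encodes p73, read 5.99 on the control array and 6.01 on the miR-95 array (log2, as deposited), below the detection rule on both.

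MicroRNAs pair with messenger RNAs mainly through the seed, bases 2 to 8 of the mature strand. The precursor of miR-95 gives an arm from each side of its hairpin, and the labels do not say which arm was raised, so both are shown as RefSeq lists them for GRCh38.p14, with the seed in capitals. The 3p arm lies at chr4:8005312-8005333 and the 5p arm at chr4:8005347-8005367, both on the minus strand.
hsa-miR-95-3p: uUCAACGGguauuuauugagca
hsa-miR-95-5p: uCAAUAAAugucuguugaauu
No other mature microRNA among the 2545 in the table has either seed. Seed sites in the messages of the 6 genes were not analysed here.

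Each array was centred on its median over genes, 7.46 for the control and 7.495 for miR-95, a shift of 0.035. A difference below is the centred log2 value on the miR-95 array less that on the control array. Readings of single arrays are the deposited log2 values without centring. A gene counted as detected when it reached the array median on at least 1 array, and 7081 genes did. All 6 stress targets reached it on both arrays. With 1 array per group there is no replicate error, standard error or p-value. As a guide to measurement scatter, 68 detected genes had several probe sets. The differences those probe sets gave for the same gene had a standard deviation of 0.151, pooled over genes as a root mean square. It was taken from the range within each gene, as for a pair of probe sets, and is smaller than that range. That figure holds no variation between cultures. The robust SD of the differences of all detected genes was 0.148.

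Of the 6 genes, 5 read higher on the miR-95 array and 1, AEN, read nearly the same. The 6 fall into 3 levels of difference: TP53INP1 and RNF144B at least 1.5-fold higher, RRM2B, TIGAR and SESN2 about 1.25-fold higher, and AEN flat. The 1.5-fold limit upwards was passed by 2 of the 6 genes and by 0.395% of all detected genes, and the 1.2-fold limit by 5 of the 6 and by 5.48%. Positive differences were found in 5 of the 6 and in 40.6% of all detected genes, of which 59.4% were negative. Because the genes were chosen on this contrast, nothing is read from the gap between those shares. The median difference of the 6 was 0.32, beside -0.035 over all detected genes. Precision is limited by the number of arrays.

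**Figure D1:**
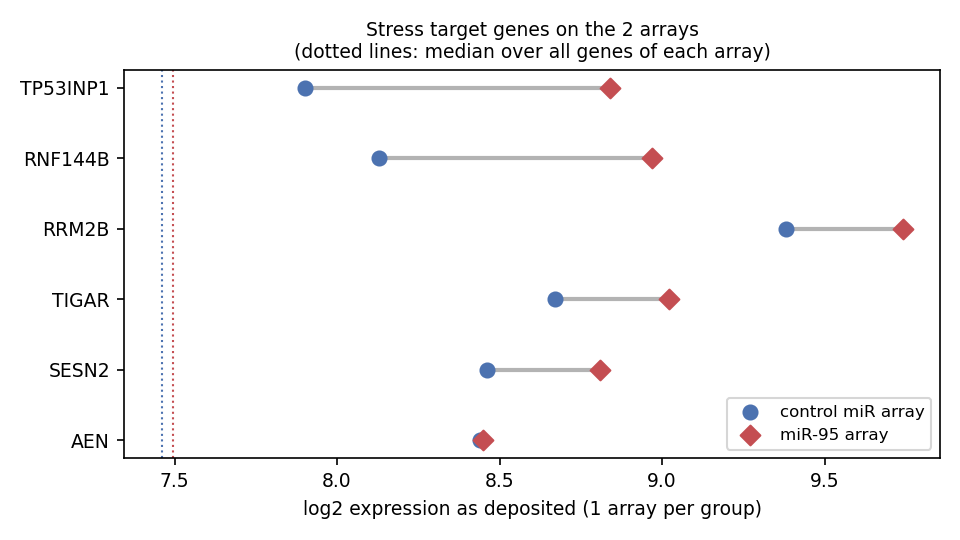
Log2 expression as deposited (x axis) of the 6 stress target genes on the control array (blue circles) and the miR-95 array (red diamonds), 1 array each and no error bars, with dotted lines at the array medians of 7.46 and 7.495. TP53INP1 and RNF144B are the pairs set farthest apart (7.90 to 8.84 and 8.13 to 8.97), while the pair for AEN overlaps (8.44 and 8.45).

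TP53INP1 is a nuclear and autophagy-linked stress protein that works with p53 and p73 and with the kinase HIPK2 to promote cell death. Its probe set (17079317, Entrez gene 94241) read 7.90 on the control array and 8.84 on the miR-95 array. The control reading lay 0.44 above its array's median and the miR-95 reading 1.345 above. The difference of 0.905 corresponds to 1.87-fold and placed TP53INP1 2nd from the top of the 7081 detected genes. Only GALNT1, at 1.035, lay above it, and the next named gene below was KRTAP2-3, at 0.875. Among the 500 detected genes closest to it in mean expression, 0 had a difference as large, and their range ran from -0.985 to 0.655.

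RNF144B is a RING-between-RING (RBR) ubiquitin ligase that p53 and p63 induce and that marks partner proteins, among them p21 and BAX, for degradation. Its probe set (17005197, Entrez gene 255488) read 8.13 on the control array and 8.97 on the miR-95 array. The difference of 0.805 corresponds to 1.75-fold and ranked 6th from the top. By order of difference its nearest neighbours were the keratin-associated genes KRTAP2-3 (0.875) and KRTAP1-5 (0.795), once symbols of unnamed loci and small RNAs were left out. Of the 500 genes closest in mean expression, 1 had a difference at least as large.

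RRM2B encodes p53R2, the small ribonucleotide reductase subunit that supplies DNA building blocks outside S phase and to mitochondria. Its probe set (17079808, Entrez gene 50484) read 9.38 on the control array and 9.74 on the miR-95 array. The difference of 0.325 is 1.25-fold and was shared by 13 detected genes including RRM2B, with 2.90% of detected genes higher. Among the 500 genes nearest in mean expression, 11 had a difference at least as large.

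TIGAR is a phosphatase that lowers fructose-2,6-bisphosphate and turns glucose towards the pentose phosphate pathway and NADPH. Its probe set (16747004, Entrez gene 57103) read 8.67 on the control array and 9.02 on the miR-95 array. SESN2 is a sestrin, a leucine-binding protein that restrains the growth kinase mTORC1 through the GATOR complexes. Its probe set (16661544, Entrez gene 83667) read 8.46 on the control array and 8.81 on the miR-95 array. Both genes differed by 0.315, or 1.24-fold, a value that 18 detected genes shared and 3.08% exceeded. Of the 500 genes nearest in mean expression, 22 for TIGAR and 21 for SESN2 had a difference at least as large. RRM2B, TIGAR and SESN2 differ from each other by no more than the rounding of the deposited values, which is to 0.01. A gap of 0.48 separated RRM2B from RNF144B.

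AEN is an exonuclease that takes part in DNA fragmentation during p53-dependent cell death. Its probe set (16804478, Entrez gene 64782) read 8.44 on the control array and 8.45 on the miR-95 array. The centred difference was -0.025, and it was 0.01 as deposited and under quantile normalization, so AEN has no direction that holds under every scaling. It lay in the middle of the distribution, with 46.4% of detected genes higher.

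**Figure D2:**
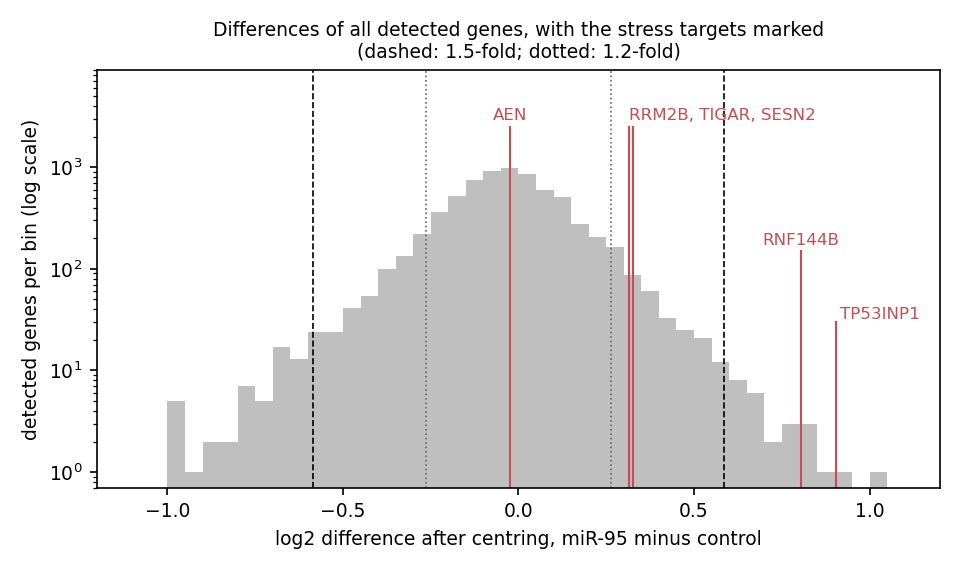
Number of detected genes (y axis, log scale) by log2 difference after centring (x axis, miR-95 minus control, bins of 0.05), with a red line for each stress target, dashed lines at 1.5-fold and dotted lines at 1.2-fold. TP53INP1 (0.905) and RNF144B (0.805) lie in the sparse right tail, RRM2B, TIGAR and SESN2 (0.325, 0.315 and 0.315) on the right shoulder and AEN (-0.025) at the centre.

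Each of the 6 was also set beside the 500 detected genes closest to it in genomic span, a comparison chosen after seeing the data. Those reference genes had medians from -0.075 (for RNF144B) to -0.025 (for TP53INP1 and SESN2). Relative to them TP53INP1 was 0.93 higher and RNF144B 0.88 higher, and none of the 500 reached either gene's difference. For RRM2B 11 of 500 did so, and for TIGAR and for SESN2 16 of 500. The order of the 3 levels was the same on this scale.

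Sequences upstream of the transcription start were compared because the 6 genes differed in how far apart their readings were and p53 family proteins act through a defined DNA element. RefSeq windows of 250 bases before the start were matched for 4 of the 6 genes (RNF144B, TIGAR, SESN2 and AEN) on build GRCh38.p14, and 9 motifs were searched on both strands. The 2 shown are RNF144B, the gene with the largest difference among the 4, and AEN, the gene with none. Capitals in RNF144B mark a TATA box (TATAAA). Capitals in AEN mark a pair of CCAAT boxes and then, nearest the start, the p53 half-site consensus. RNF144B lies at chr6:18387100-18387349 and AEN at chr15:88621090-88621339, both on the plus strand.
RNF144B: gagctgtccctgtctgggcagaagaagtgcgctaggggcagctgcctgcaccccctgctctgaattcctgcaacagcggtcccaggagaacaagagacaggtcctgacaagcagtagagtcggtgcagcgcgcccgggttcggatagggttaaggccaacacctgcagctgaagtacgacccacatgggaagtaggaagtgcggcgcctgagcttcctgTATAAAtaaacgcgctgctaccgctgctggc
AEN: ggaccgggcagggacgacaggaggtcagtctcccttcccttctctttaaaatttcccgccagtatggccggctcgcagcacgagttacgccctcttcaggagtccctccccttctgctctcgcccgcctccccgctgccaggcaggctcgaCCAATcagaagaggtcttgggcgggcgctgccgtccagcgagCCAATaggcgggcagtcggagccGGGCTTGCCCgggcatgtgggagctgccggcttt

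The p53 half-site consensus was found in AEN alone of the 4, from 34 to 25 bases before the start, and in 5.53% of 27305 promoter windows of the same length. AEN was also the gene of the 4 whose readings were nearly equal on both arrays. Whether the match relates to those readings was not tested, and a single gene could not show it. CCAAT was found in TIGAR once and in SESN2 and AEN 2 times each, and 33.0% of all windows held it. TATAAA was found in RNF144B, from 31 to 26 bases before the start, and in 11.1% of all windows. The ATF4 motif TGATGNAA (3.19% of all windows), the antioxidant response motif TGACNNNGC (11.0%), the AP-1 motif TGANTCA (6.60%), the cyclic AMP response element TGACGTCA (1.77%), the E-box CACGTG (6.49%) and the FOXO motif GTAAACA (2.98%) were in none of the 4 windows. No motif searched was found in all 3 of RNF144B, TIGAR and SESN2. A match describes the letters only, and a window without one says nothing about the factor, whose sites can lie in introns or farther away.

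The p53 targets left once these 6 were taken out had differences in both directions. The 6 were chosen with their values in view, so what is left depends on that choice. A list of 66 known targets held 60 besides these 6 genes, and 29 of those had a probe set used here and 21 were detected. Of the 21, 11 had positive and 10 negative differences, a share of 52.4% positive beside the 40.6% of all detected genes. No gene of the 21 passed 1.5-fold in either direction (background 0.395% higher and 0.861% lower), while 2 passed 1.2-fold upwards and 3 downwards (background 5.48% and 8.45%). Their median was 0.055, beside -0.035 over all detected genes, and it was -0.045 when detection was set at the 75th percentile, which left 10 of them. With the 6 included, 27 targets were detected, 16 positive and 11 negative, with a median of 0.075. Probe sets named for several standard reporters of p53 activity, among them CDKN1A, MDM2, GADD45A, FAS and DDB2, were not used here.

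**Figure D3:**
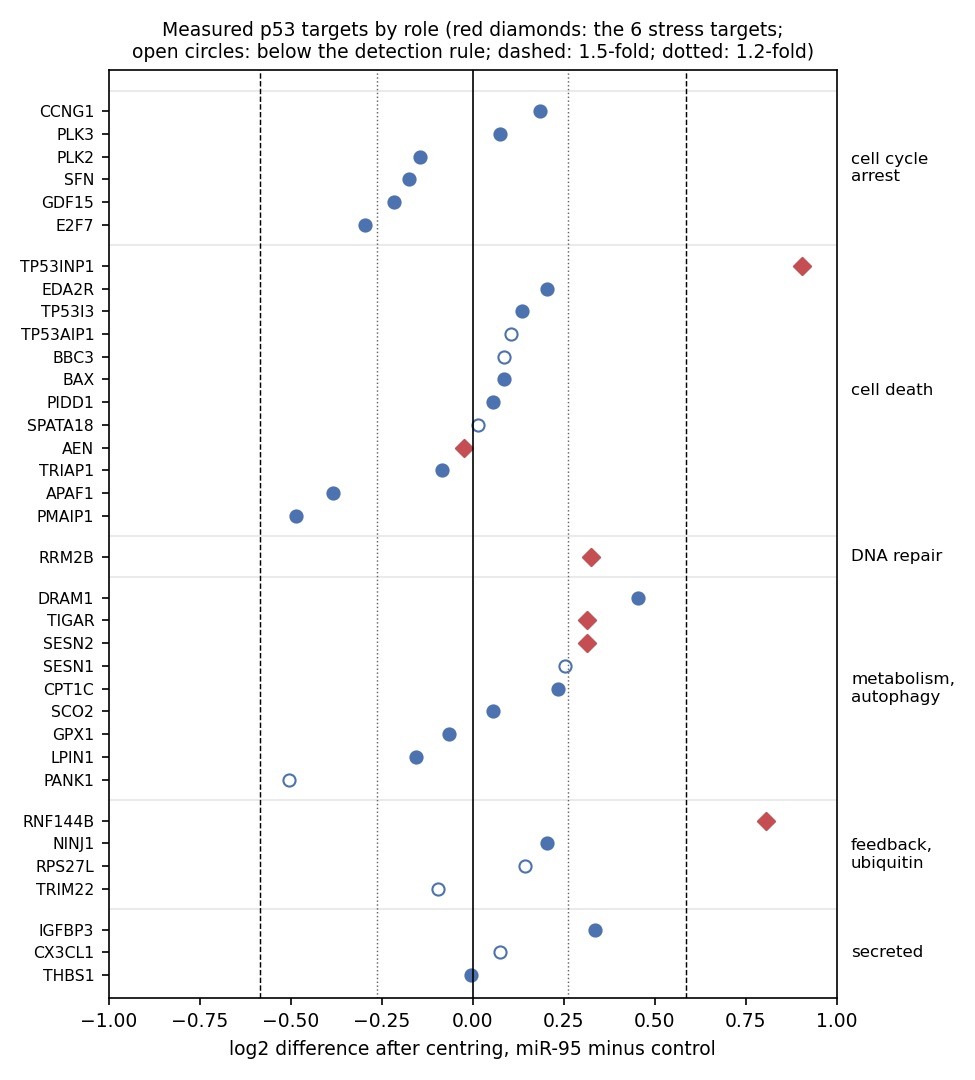
Log2 difference after centring (x axis, miR-95 minus control) of each measured p53 target (y axis), grouped by role, with the 6 stress targets as red diamonds, other genes as blue circles and open circles for genes below the detection rule. TP53INP1 and RNF144B are the only ones beyond the dashed 1.5-fold line. The arrest group runs from -0.295 to 0.185, with 4 of 6 genes negative beside 59.4% of all detected genes.

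By role, the 6 detected cell cycle arrest targets had a median of -0.16, beside -0.035 over all detected genes. Of these 6, 4 were negative (background 59.4%) and 2 positive (background 40.6%). E2F7, a repressor of E2F targets, differed by -0.295 and GDF15, a secreted stress cytokine, by -0.215, while CCNG1, cyclin G1, differed by 0.185 and the kinase PLK3 by 0.075. The 7 detected cell death targets other than TP53INP1 and AEN had a median of 0.055 and went both ways, and the median was -0.285 with detection at the 75th percentile. PMAIP1 (NOXA), a BH3-only killer protein, read 10.40 on the control array and 9.95 on the miR-95 array, a difference of -0.485. APAF1, the scaffold of the apoptosome, differed by -0.385. The receptor EDA2R was at 0.205 and the oxidoreductase TP53I3 at 0.135. The difference of TP53INP1 (0.905), a gene chosen with its value in view, was the highest of its role group. That of AEN lay among the other cell death genes.

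In the metabolism and autophagy group DRAM1, a lysosomal membrane protein that promotes autophagy, read 9.11 on the control array and 9.60 on the miR-95 array, a difference of 0.455 that exceeded those of TIGAR and SESN2 in the same group. CPT1C, a carnitine palmitoyltransferase relative, was at 0.235. LPIN1, a phosphatidate phosphatase, was at -0.155 and the glutathione peroxidase GPX1 at -0.065. Of the 5 detected in this group besides TIGAR and SESN2, 3 were positive (background 40.6%), with 1, DRAM1, past 1.2-fold upwards (background 5.48%) and 0 downwards (background 8.45%). In the feedback group only RNF144B and NINJ1, a plasma membrane protein (0.205), were detected. In the secreted group IGFBP3, which binds insulin-like growth factors, was at 0.335 and the matrix protein THBS1 at -0.005, a sign that turned positive without centring. RRM2B was the only measured gene of its repair group, where the other 6 were not named on the probe sets used.

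Genes that act on p53 or switch it on lay close to the background of all detected genes. Of 14 detected regulators, 9 were negative (background 59.4%) and 5 positive, with a median of -0.065 beside -0.035, and 1 passed 1.2-fold downwards (background 8.45%) and 0 upwards (background 5.48%). HIPK2, the kinase that phosphorylates p53 and partners TP53INP1, read 12.29 on the control array and 12.01 on the miR-95 array, a difference of -0.315. CHEK1, a checkpoint kinase, was at -0.235, ATR, a replication stress kinase, at 0.195 and DAXX, a partner of HIPK2 in p53 control, at 0.135.

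TP53INP1, RNF144B, RRM2B and TIGAR each had a higher difference than any other measured gene of the family list it belongs to, and SESN2 did not. These genes were chosen with their differences in view, so nothing is read from their place in the lists. TP53INP2, the close relative of TP53INP1, read 9.07 on the control array and 9.25 on the miR-95 array, a difference of 0.145 against 0.905. The ATG8 proteins that both bind to reach autophagosomes ran from -0.195 for GABARAPL1 to 0.025 for GABARAP among those detected. RNF144A, the closest relative of RNF144B, read 9.39 and 9.50, a difference of 0.075 against 0.805. The other 9 detected genes of the RBR list, RNF144A included, lay between -0.125 (RNF14) and 0.075, with a median of -0.025.

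In the ribonucleotide reductase group RRM2B, chosen with its difference in view, was positive. RRM1 and RRM2 were negative, as were 59.4% of all detected genes, and neither passed 1.2-fold. RRM1, the large catalytic subunit, read 10.81 on the control array and 10.61 on the miR-95 array, a difference of -0.235. RRM2, the S-phase small subunit that RRM2B replaces outside S phase, read 10.99 and 10.86, a difference of -0.165. RRM2B was at 0.325 and was the only gene of the group past 1.2-fold upwards. Among the 7 other detected genes of nucleotide supply 6 were negative (background 59.4%), with a median of -0.165 beside -0.035 over all detected genes, and DCK, the deoxycytidine kinase of the salvage pathway, was lowest at -0.395. DGUOK, the mitochondrial deoxyguanosine kinase, was at 0.025.

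The measured sugar phosphate enzymes lay close to zero around TIGAR. Hexokinases HK1 and HK2 were each at -0.075 and TKT, a transketolase of the pentose phosphate pathway, was at 0.035, with a median of -0.025 over 5 genes. The 4 PFKFB enzymes, which make and break the substrate of TIGAR, were not named on the probe sets used here.

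SESN2 was chosen with its difference in view, and its relatives SESN1 and SESN3 also had positive differences. The background of 40.6% positive is over detected genes and does not cover SESN1 and SESN3. SESN1 read 7.02 on the control array and 7.31 on the miR-95 array, and SESN3 read 5.57 and 5.89, both below the detection rule on both arrays, with differences of 0.255 and 0.285. Among the detected partners of SESN2 in nutrient sensing, CASTOR1, an arginine sensor, was at 0.355 and SEH1L, a GATOR2 subunit shared with the nuclear pore, at 0.295. WDR59, another GATOR2 subunit, was at -0.145 and DEPDC5, of GATOR1, at -0.035. Of 8 detected genes besides SESN2, 5 were positive (background 40.6%) and 3 negative (background 59.4%). Their median was 0.09, beside -0.035 over all detected genes. The 1.2-fold limit was passed upwards by 2 (background 5.48%) and downwards by 0 (background 8.45%). AEN had 1 measured relative, the interferon-induced exonuclease ISG20, which was below the detection rule at -0.065.

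**Figure D4:**
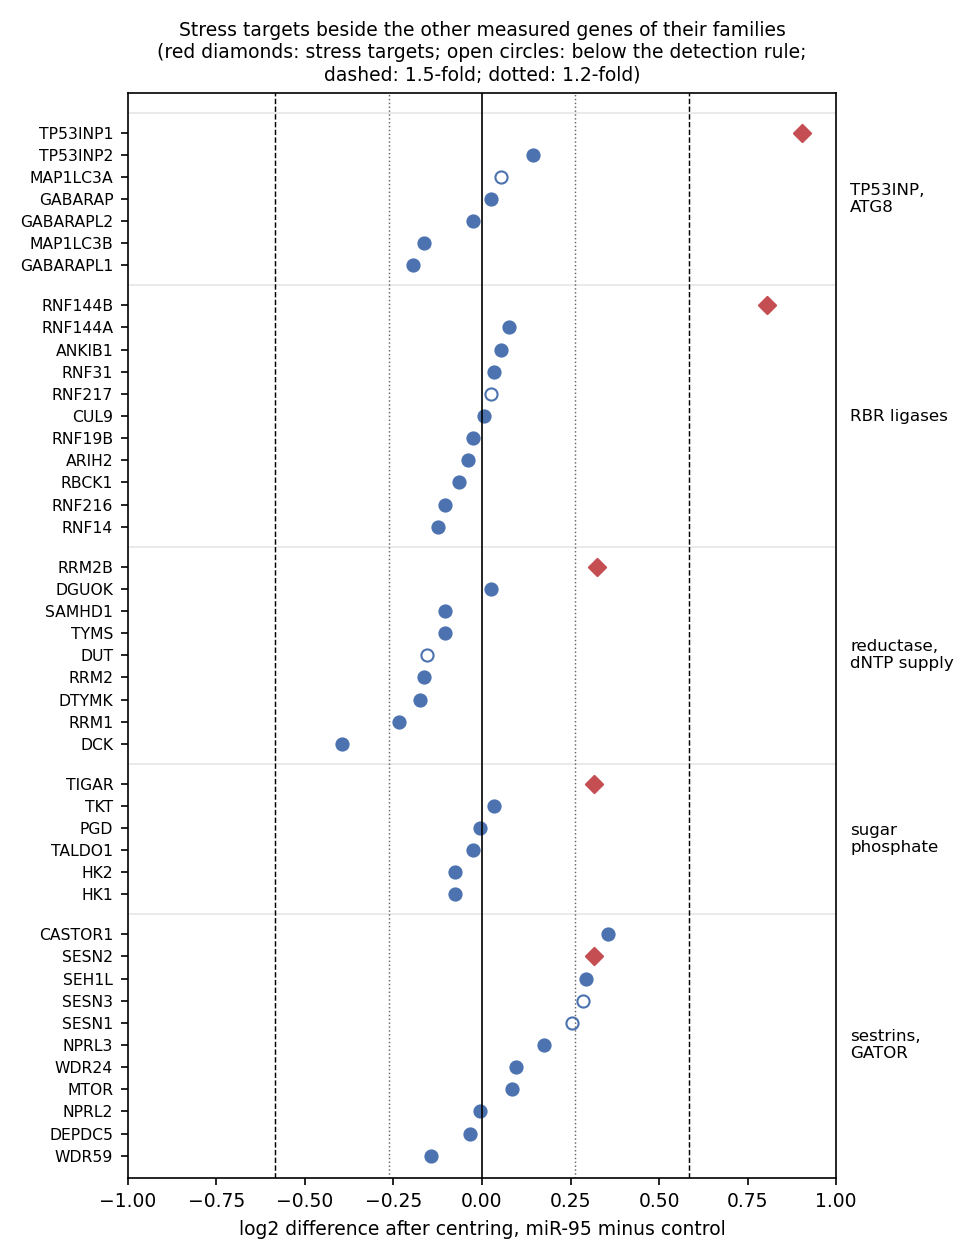
Log2 difference after centring (x axis, miR-95 minus control) of the stress targets (red diamonds) and the other measured genes of 5 family or pathway lists (blue circles, open where below the detection rule), with dashed lines at 1.5-fold and dotted lines at 1.2-fold. TP53INP1, RNF144B, RRM2B and TIGAR each lie to the right of every relative in their list, whereas SESN2 (0.315) lies below CASTOR1 (0.355) and close to SEH1L, SESN3 and SESN1. The stress targets were chosen with these differences in view.

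Targets of ATF4, NRF2 and FOXO factors, which are known to act on some of these genes, were listed too, with few detected genes in each and no test between the lists. The ATF4 list had 6 of 7 detected genes positive (background 40.6%), with a median of 0.145, and 1 past 1.2-fold upwards (background 5.48%). TRIB3, a pseudokinase induced by ATF4, read 9.34 on the control array and 9.67 on the miR-95 array, a difference of 0.295 close to that of SESN2. DDIT4, an inhibitor of mTORC1, was at 0.215 and PSAT1, an enzyme of serine synthesis, at -0.235. The NRF2 list had 3 of 4 detected genes negative (background 59.4%), with a median of -0.155. In it TXNRD1, thioredoxin reductase, was at -0.535, HMOX1, heme oxygenase, at -0.165 and OSGIN1 at 0.155. The FOXO list had 4 of 7 detected genes negative, a share near that background, and a median of -0.075, which became 0.125 with no filter on dim genes. CCNG2, cyclin G2, was at -0.235 and RBL2, a pocket protein, at -0.205, while the zinc finger factor KLF6 was at 0.135 and catalase (CAT) at 0.125. Whether any of these regulators had a part in the values of the 6 genes was not tested.

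The arrays were close overall (Pearson's r of 0.9959 across 23641 probe sets). The 1.5-fold limit was passed upwards by 28 and downwards by 61 detected genes after centring, and by 37 and 45 as deposited, so the balance between directions depends on the centring. The epithelial markers measured (KRT8, KRT18, KRT19, EPCAM) and VIM were detected on both arrays, with sums of 43.77 and 43.87 log2 units as deposited. Their centred differences went both ways, from -0.195 for EPCAM to 0.145 for KRT19. Of 8 measured markers of luminal prostate, fibroblast, leukocyte and endothelial cells only KDR was detected (7.96 and 8.28), and the defining luminal markers KLK2 and KLK3 were below the rule. LUM, a fibroblast marker, read 7.33 and 6.04, below the rule on both. Their part in the values of the 6 genes was not tested. In bulk RNA a change in the number of cells of a kind and a change in RNA per cell cannot be told apart.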

How the data were processed

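The deposited values are log2 expression values per probe set, 1 column per array, rounded by the authors to 0.01. Per the submitters' processing notes the software was Affymetrix Expression Console 1.2. The sources used here do not give how probes were summarised, corrected for background, scaled between arrays or filtered. Only probe sets with a single symbol in the platform annotation were used, 14088 of 23641. Those with no symbol or with several were left out. Symbols were updated through Entrez identifiers with the RefSeq table of GRCh38.p14. Probe sets of a gene were averaged (167 genes had several). Arrays were centred on their medians, and limits of 1.5-fold and 1.2-fold were used with no test, since each group has 1 array. Python 3.11.15, numpy 2.4.6, pandas 2.3.3 and statsmodels 0.14.6 were used, and the steps were checked on simulated data. The members and gene lists were chosen with earlier results of these data known. Genes named besides the 6 are family members, close relatives, up to 2 detected genes of each list with the largest positive and up to 2 with the largest negative differences, neighbours on the chromosome and neighbours in rank. Fewer than the rule allows are named. Cell type markers come from a list of their own. The alternatives were other centrings, other filters on dim genes, the brightest probe set and an offset of 16.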

Additional observations from a re-analysis of the deposited data

How the results depend on the processing

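Across 11 other settings (9 listed at the start, and 2 chosen after seeing the data, which set each gene against the 500 genes nearest in span or in mean expression), TP53INP1 ranged from 0.864 to 0.94, RNF144B from 0.773 to 0.88, RRM2B from 0.32 to 0.37, TIGAR from 0.306 to 0.38, SESN2 from 0.304 to 0.35 and AEN from -0.025 to 0.01. With detection at the 75th percentile RRM2B alone of the 6 was detected, so the counts past 1.5-fold and 1.2-fold upwards became 0 and 1, because fewer genes were kept. That setting left 14 detected genes past 1.5-fold upwards and 28 downwards, and no filter gave 59 and 128. Detection at the 75th percentile also moved the medians without the 6 genes to -0.285 for cell death targets, 0.345 for metabolism and autophagy targets and -0.34 for NRF2 targets, each over fewer genes. The other p53 targets had a median between -0.045 and 0.09. As deposited, 3 of them passed 1.2-fold upwards and 2 downwards. Of 52 other genes followed through the first 9, 2 (THBS1 and TP73) changed sign, both from differences of 0.015 or less in size. No paired analysis was possible because each group has 1 array. No signal over background was used here, so how far dim probe sets limit the values is unknown.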

Other observations

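The nearest measured genes on each side of the 6 on their chromosomes did not follow them in any common way. Unnamed loci and several classes of noncoding RNA were left out, and no limit was set on distance. Other genes can therefore lie between a member and the neighbours named here. TP53INP1 lies between CCNE2, cyclin E2, at -0.275 and CFAP418, a cilium and flagellum protein, at -0.145, both detected. RNF144B lies between DEK, a chromatin protein, at -0.275 and MBOAT1, a lysophospholipid acyltransferase, at -0.365, both detected. These neighbours were all negative, as were 59.4% of all detected genes, and TP53INP1 and RNF144B were chosen with their differences in view. Whether position on the chromosome had a part was not tested. For AEN, at -0.025, the nearest measured gene before it was DET1, a ubiquitin ligase component. DET1 read 8.59 on the control array and 8.93 on the miR-95 array, a difference of 0.305. SESN2 lies between ATP5IF1, the inhibitor of the mitochondrial ATP synthase, at -0.065 and MED18, a Mediator subunit below the detection rule, at 0.135. For TIGAR and RRM2B the nearest measured genes on both sides (CCND2, FGF23, NCALD and ODF1) were below the detection rule.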
